A study of Mus musculus with 6 samples.

Results

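Oxidative phosphorylation is carried out by 5 protein complexes of the inner mitochondrial membrane, and the genes of these complexes were followed in 6 clones of mouse iPSCs (induced pluripotent stem cells), 3 of them with a Cas9 knockout of Tet1. Members were the rows of the deposited gene table whose symbols begin with Nduf, Uqcr, Cox and a digit, Atp5, mt-Nd, mt-Co, mt-Cytb or mt-Atp, together with Sdha, Sdhb, Sdhc and Sdhd. Of 121 rows with such symbols, 7 pseudogene (-ps) symbols, Cox7b2 and 11 rows with fewer than 60 counts over the 6 libraries were left out. The remaining 102 rows, of 48440 genes in the table, comprised 75 nuclear genes of subunits, 10 protein-coding genes of the mitochondrial chromosome (chrM) and 17 nuclear genes of assembly, maturation or related factors that share the prefixes without being subunits. The nuclear subunits were 35 of complex I, 4 of complex II, 8 of complex III, 13 of complex IV and 15 of complex V. The symbols decided membership and no measured difference did.

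The study asked how gene expression differs between Tet1 knockout and non-targeted iPSCs, Tet1 being an enzyme that oxidises 5-methylcytosine. All 6 lines are male clones of the parental line iPSC34.3, whose strain label joins the allele Tet1tm1Kohx on B6 with the transgene B6;CBA-Tg(Pou5f1-EGFP)2Mnn/J. The knockout clones 14, 30 and 33 (replicates 1 to 3) have the genotype wt/wt;GFP/wt with Tet1 Cas9 mut/mut, and the non-targeted clones 49, 51 and 52 (replicates 1 to 3) have wt/wt;GFP/wt. The labels give both groups the same history: 14 passages, transfection with Cas9 ribonucleoprotein, a Tet1 guide and a donor oligonucleotide, 12 h with an enhancer, then picking, 4 passages and expansion on mouse embryonic fibroblasts (MEFs) as feeders. They do not say how the non-targeted clones came to lack the edit. Each library is 1 clone, and the p-values rest on how far clones of a single parental line vary.

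Polyadenylated RNA was sequenced in strand-specific libraries, and the libraries summed to between 11937909 and 16189554 counts. Levels are given as CPM, counts scaled to a common library size, for replicates 1, 2 and 3 in that order and for the knockout before the non-targeted clones. Tet1 stood at 365, 231 and 288 CPM against 1158, 966 and 1034 CPM, which fits the labels. All 12 pluripotent cell markers examined, Pou5f1 among them, had counts in every library. In knockout replicates 2 and 3, but not in replicate 1, long runs of chromosome 6 genes were lower than in the non-targeted clones, and 4 members lie there. In non-targeted replicate 3, chrM genes were lower than in the other 5 libraries. Values with and without these libraries are given where they bear on a result.

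Complexes I to IV pass electrons from NADH and succinate to oxygen, and complexes I, III and IV move protons across the inner membrane as they do so. Complex V, the ATP synthase, lets the protons return and makes ATP. Most subunits are encoded in the nucleus and imported, whereas a small core of complexes I, III, IV and V is encoded on chrM and transcribed there as long precursors from both strands. Complex II is wholly nuclear. Pluripotent cells are known for drawing much of their ATP from glycolysis while they keep a working respiratory chain.

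The chrM rows cannot be read as levels without their sequences, because parts of chrM have near-identical copies in the nuclear genome. In all, 7 annotated rows between 24611535 and 24616197 on the minus strand of chromosome 1 (GRCm38) match mt-Co1, mt-Co2, mt-Atp6, mt-Co3, mt-Nd3, mt-Nd4l and mt-Nd4 in the order of chrM. The first 90 bases of mt-Co2, which encodes the copper-binding subunit of complex IV that takes electrons from cytochrome c, are shown beside the chromosome 1 copy Gm28661 and the chromosome 2 copy Gm13341, read from the GENCODE M21 transcripts. Capitals mark the bases at which the chromosome 2 copy differs from mt-Co2.
mt-Co2: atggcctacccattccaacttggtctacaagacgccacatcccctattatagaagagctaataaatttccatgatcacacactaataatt
Gm28661: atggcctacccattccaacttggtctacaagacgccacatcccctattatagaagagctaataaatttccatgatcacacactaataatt
Gm13341: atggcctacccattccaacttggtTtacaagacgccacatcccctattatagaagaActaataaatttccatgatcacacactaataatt

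Over the 681 bases compared, Gm28661 and mt-Co2 were identical, and the mt-Co2 row held 273 counts over the 6 libraries against 13972 in Gm28661. Gm13341 differed from mt-Co2 at 16 bases and held 250 counts. The same was seen for mt-Atp6, a proton-channel subunit of complex V, with 436 counts against 30171 in its identical copy Gm10925 (678 bases). For mt-Co3, a complex IV core subunit, the values were 249 counts and 14234 in Gm28437 (783 identical bases). Thus the 3 rows whose sequence lies almost wholly within an identical copy were near-empty, while the copies held 51.2, 69.2 and 57.2 times as many counts. The deposited counts leave out reads that map to several places. Since reads were not used here, neither the part of this in the low rows nor the source of the counts in the copies was tested.

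Within the aligned bases, 2 of the 7 chromosome 1 copies differ from chrM, each at a single base, and both sites are shown. In the copy of mt-Nd3, a small complex I subunit, the change is T3C, counted from the first base of the gene. In the copy of mt-Co1, the catalytic subunit of complex IV, it is A1066T, and the copy matches only the last 483 bases of the gene. This copy is 492 bases long, so part of it did not align, and the site lies near the edge of the aligned part. Capitals mark the differing base, and the mt-Co1 stretch runs from base 1063 to base 1106.
mt-Nd3: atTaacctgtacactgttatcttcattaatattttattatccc
Gm28438: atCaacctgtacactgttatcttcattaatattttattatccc
mt-Co1: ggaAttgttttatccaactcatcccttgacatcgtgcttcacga
Gm29216: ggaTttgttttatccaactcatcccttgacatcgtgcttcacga

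The mt-Nd3 row had 36 counts in all and its copy 1637, and the mt-Nd4l row had 51 counts and its identical copy Gm10222 3050, so both chrM rows were below the minimum for a member. The third chrM row below it was mt-Atp8, with 10 counts, of which Gm10925 matches 43 bases (21.1% of its length). The chromosome 1 rows Gm10925 and Gm28661 are 233 bases apart, and so are the matching parts of mt-Atp6 and mt-Co2 on chrM, between which mt-Atp8 lies. The mt-Co1 row held 351893 counts against 19984 in Gm29216, and the mt-Nd4 row, whose first 876 bases equal those of Gm28439, held 131911 against 12613.

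**Figure D1:**
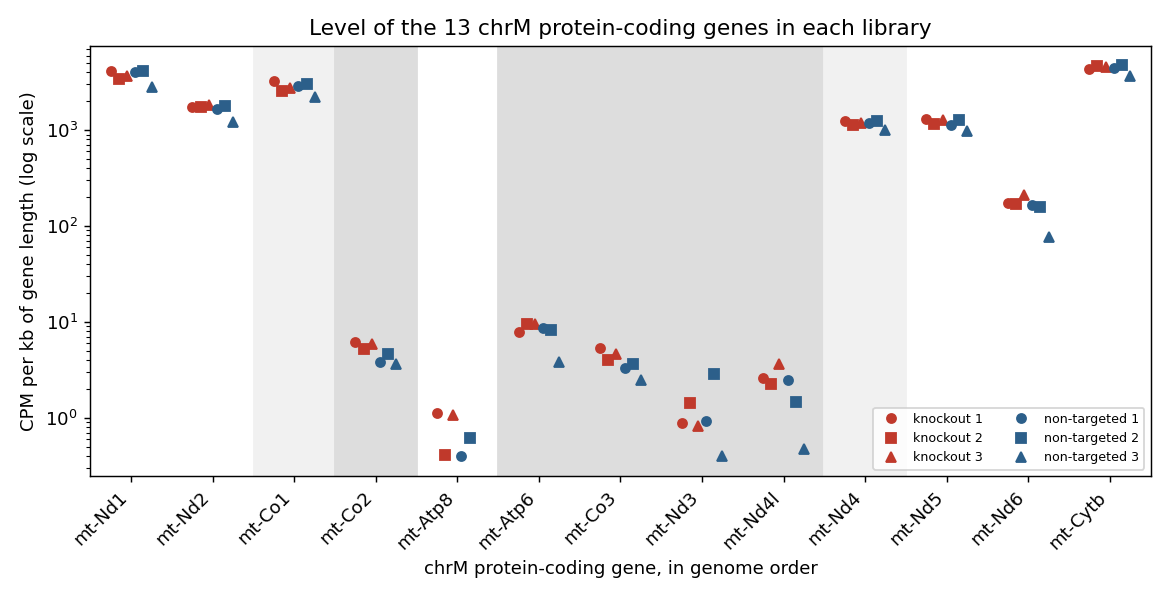
CPM per kilobase of gene length (logarithmic axis) of the 13 protein-coding chrM genes in genome order, 1 point per library. Dark shading marks genes matched over nearly all their length by a chromosome 1 copy, light shading mt-Co1 and mt-Nd4, which are matched in part; the 43 matched bases of mt-Atp8 are not shaded. The dark-shaded genes and mt-Atp8 (which has no count in non-targeted replicate 3) lie below 10 CPM per kilobase, and mt-Nd6 lies between them and the 6 abundant genes.

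The 6 abundant chrM genes had higher levels per kilobase of gene length than all other members. Mean levels per kilobase of gene length were 4394 CPM for mt-Cytb, the chrM-encoded subunit of complex III, and 3713 CPM for mt-Nd1, a complex I membrane subunit. For mt-Co1 the level was 2784 CPM per kilobase over the whole gene and 4050 when the counts were assigned to the bases outside the copy. The other complex I subunits mt-Nd2, mt-Nd5 and mt-Nd4 had 1660, 1190 and 1169 CPM per kilobase, mt-Nd4 reaching 3208 over the bases outside its copy. Thus the place of mt-Nd4 and mt-Co1 in this order depends on how the shared bases are treated. The light-strand gene mt-Nd6 is the only member transcribed from the minus strand of chrM. In these libraries of polyadenylated RNA mt-Nd6 had 159 CPM per kilobase, below the most abundant nuclear members. The part of that RNA selection in its level was not tested. The most abundant nuclear members on the same scale, per kilobase of exon, were Atp5b and Atp5a1, the catalytic and partner subunits of the ATP synthase head, at 917 and 468 CPM per kilobase.

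No member was called between the groups. With edgeR's quasi-likelihood test and Benjamini-Hochberg adjustment over the 14664 tested genes, 0 genes passed an adjusted p of 0.05 in either direction (0%), and all 102 members were tested. At an unadjusted p under 0.05, 2 members were higher and 15 lower in the knockout clones, where 14.0% of all tested genes were higher and 10.8% lower. DESeq2 called 1 member, Ndufv3, as lower and none as higher, against 3.15% and 5.50% of all genes it adjusted, and limma voom called no member. Fold changes below are log2 values, knockout minus non-targeted, and the median over all tested genes was 0.00.

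The 10 chrM members each had a positive log2 fold change, with a median of 0.17, but most of this rested on 1 library. mt-Nd1 had 4004, 3298 and 3551 CPM in the knockout clones against 3823, 3928 and 2717 CPM. mt-Cytb had 4969, 5357 and 5177 CPM in the knockout clones against 5089, 5406 and 4166 CPM. mt-Co1 had 5047, 3977 and 4265 CPM against 4503, 4623 and 3390 CPM. In each of these genes the groups overlapped and the lowest library was non-targeted replicate 3, as it was for all 10 chrM members, at 45.3% to 86.8% of the mean of the other non-targeted clones. Log2 fold changes were 0.05 ± 0.14 (SE, n = 3 per group), 0.08 ± 0.10 and 0.09 ± 0.14, with adjusted p of 0.848, 0.630 and 0.718 (edgeR quasi-likelihood test). Without non-targeted replicate 2 the median of the 10 was 0.27. Without non-targeted replicate 3 it was 0.04 and 4 of the 10 turned negative: mt-Nd1 (-0.10), mt-Nd4 (-0.06), mt-Co1 (-0.05) and mt-Cytb (-0.03).

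The remaining abundant chrM genes were similar. mt-Nd2 had 1808, 1811 and 1881 CPM in the knockout clones against 1717, 1850 and 1270 CPM, and mt-Nd5 had 2378, 2124 and 2337 CPM against 2053, 2343 and 1784 CPM. mt-Nd4 had 1703, 1555 and 1617 CPM against 1654, 1736 and 1397 CPM. The groups overlapped in all 3, and their log2 fold changes were 0.19, 0.15 and 0.03. mt-Nd6 had 90.3, 88.9 and 108 CPM in the knockout clones against 86.7, 82.3 and 39.5 CPM. Its groups did not overlap, but the highest non-targeted value stood close below the lowest knockout value, and the log2 fold change of 0.46 ± 0.27 (adjusted p = 0.316, edgeR) was 0.18 without non-targeted replicate 3.

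Of the near-empty rows, mt-Co2 and mt-Co3 had the largest chrM fold changes, and that of mt-Atp6 lay below the value of mt-Nd6. mt-Co2 had 4.22, 3.56 and 4.03 CPM in the knockout clones against 2.58, 3.18 and 2.50 CPM, and mt-Co3 had 4.22, 3.14 and 3.60 CPM against 2.58, 2.87 and 1.95 CPM. Neither overlapped between groups, and their log2 fold changes were 0.51 ± 0.22 and 0.56 ± 0.25 (SE, n = 3 per group), with adjusted p of 0.206 and 0.215 (edgeR). Their identical chromosome 1 copies, with many more counts, had log2 fold changes of 0.14 ± 0.10 and 0.13 ± 0.13. mt-Atp6 had 5.29, 6.45 and 6.54 CPM against 5.81, 5.55 and 2.57 CPM, with overlap and a log2 fold change of 0.39 ± 0.32, and its copy Gm10925 had 0.15 ± 0.14. In total 3 of the 10 chrM members did not overlap between groups, all higher in the knockout, where 14.8% of all tested genes did so, and the 3 include both near-empty complex IV rows and mt-Nd6. The 6 chrM members above 1000 CPM had a median log2 fold change of 0.08 and all overlapped. The 7 chromosome 1 copies together had 1324, 1128 and 1192 CPM in the knockout clones against 1201, 1229 and 944 CPM, again with the lowest value in non-targeted replicate 3.

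The 75 nuclear subunits mostly leaned the other way by small amounts. Their median log2 fold change was -0.12, and 64 of 75 (85.3%) were negative where 49.7% of all tested genes were. At an unadjusted p under 0.05, 15 were lower (20%) and 1 higher (1.33%), and 25 (33.3%) lay lower without overlap, where 14.7% of all tested genes did, against 3 (4.00%) that lay higher. Set against the non-targeted mean, their median was -0.05, -0.14 and -0.15 in knockout replicates 1 to 3. Measured against the other non-targeted clones, non-targeted replicates 1 to 3 had medians of 0.03, -0.08 and 0.05, so that the median of knockout replicate 1 lay within the range of the non-targeted clones and those of replicates 2 and 3 lay below it. Outside the chromosome 6 stretches, 60 of 71 were negative, with a median of -0.11 and 23 lower without overlap. The number of negative values was between 58 and 65 when each library was left out in turn.

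**Figure D2:**
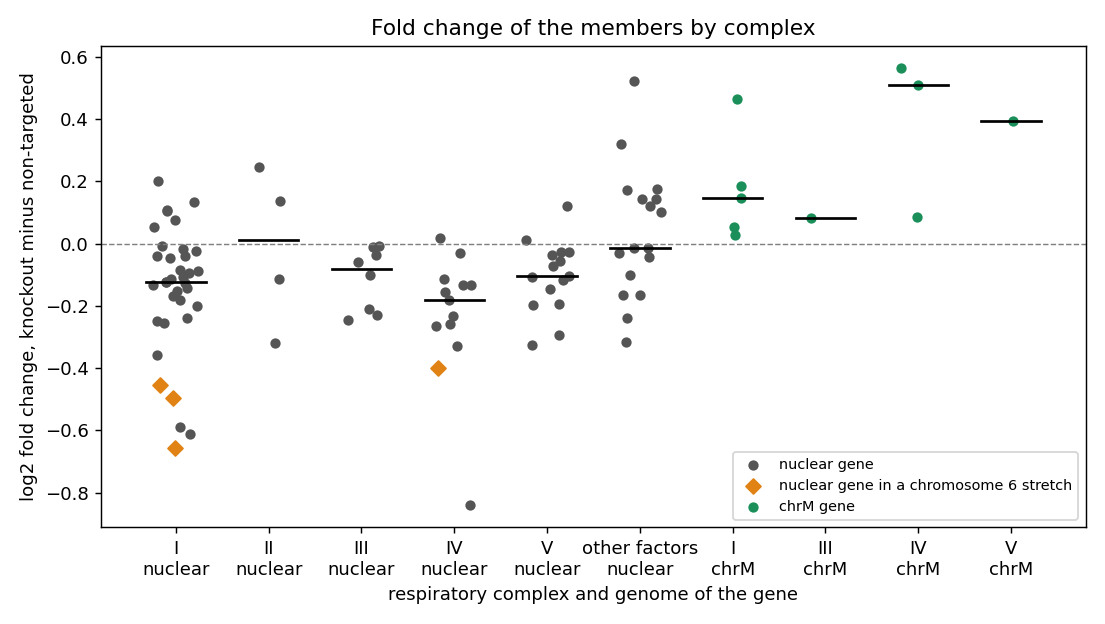
Log2 fold change (knockout minus non-targeted) of the 102 members by respiratory complex and genome, 1 point per gene, with the median of each class as a bar. Nuclear classes other than complex II and the other factors have medians between -0.18 and -0.08, the 4 members in the shifted chromosome 6 stretches (diamonds) are among the lowest, and all chrM genes lie above 0.

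Complex I takes electrons from NADH in its N module, passes them to ubiquinone in its Q module and pumps protons in its membrane arm. The 35 nuclear complex I genes had a median of -0.12, with 29 negative (82.9%, against 49.7% of all tested genes) and 13 lower without overlap (37.1%, against 14.7%). By module, the medians were -0.12 for 8 N module genes, -0.22 for 8 Q module genes and -0.08 for 19 membrane arm genes. All 8 Q module genes were negative, but 2 of them, Ndufa5 and Ndufa9, lie in the shifted chromosome 6 stretches.

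Ndufv3, an accessory subunit of the N module (chromosome 17, 31520115 to 31531326, GRCm38), had 55.0, 38.6 and 33.8 CPM in the knockout clones against 66.8, 58.2 and 69.8 CPM. All knockout values were below all non-targeted values, and knockout replicate 1 was the closest to them. The log2 fold change was -0.61 ± 0.18 (SE, n = 3 per group), with an edgeR adjusted p of 0.128 and a DESeq2 adjusted p of 0.0364, and over its alternatives the adjusted p ranged from 0.00210 without knockout replicate 1 to 0.371. Ndufa7, an accessory Q module subunit, had 89.5, 72.1 and 79.5 CPM against 104, 95.0 and 110 CPM. Its groups did not overlap, and the log2 fold change was -0.36 ± 0.10 with an adjusted p of 0.127 (edgeR). The highest complex I value was that of Ndufab1, the mitochondrial acyl carrier protein, which lay between 37.1 and 41.5 CPM in the knockout and between 30.4 and 37.1 CPM in the other clones, with overlap and a log2 fold change of 0.20 ± 0.11.

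The 4 members on the shifted parts of chromosome 6 followed their neighbourhoods clone by clone. Against the non-targeted clones, genes from 3498382 to 42360213 (GRCm38) had a median of -0.56 in knockout replicate 2, and genes from 108107028 to 149563329 had a median of -0.98 in knockout replicate 3. Each of these clones had shifted genes in nearly the same places as the other. Ndufa9, an accessory subunit that joins the Q module to the membrane arm (126821721 to 126849136), had 160 CPM in knockout replicate 1, 77.7 and 81.8 CPM in replicates 2 and 3, and 167, 163 and 174 CPM in the other group. On the log2 scale, against the non-targeted mean, Ndufa9 stood at -0.07, -1.11 and -1.04 in knockout replicates 1 to 3, and the median of its 20 nearest scanned genes at 0.02, -0.94 and -1.05. The gene and its neighbours thus stood close together in each knockout clone.

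Ndufa4, a complex IV subunit that carries the name of complex I (11900292 to 11907497), had 171, 102 and 99.1 CPM in the knockout clones against 167, 162 and 162 CPM. Ndufa5, a Q module subunit (24518666 to 24528013), had 48.8, 28.7 and 31.6 CPM against 52.8, 49.8 and 47.0 CPM. Ndufb2, a membrane arm subunit (39592574 to 39603382), had 19.0, 12.6 and 12.4 CPM against 21.7, 21.1 and 19.3 CPM. In all 3, knockout replicates 2 and 3 were below every other library and replicate 1 was near the non-targeted clones. Their 20 neighbours had medians between -0.45 and -0.68 in knockout replicates 2 and 3, where the 3 genes stood between -0.66 and -0.79, and the number of gene copies was not measured. Without knockout replicate 1 all 4 genes were called as lower by edgeR, with adjusted p between 0.000206 (Ndufa9) and 0.00781 (Ndufb2), where 14.0% of all genes tested without that clone were called lower. With all 6 libraries the adjusted p of the 4 were 0.180 for Ndufa9, 0.174 for Ndufb2, 0.203 for Ndufa5 and 0.259 for Ndufa4, and over all alternatives they reached 0.401, 0.393, 0.443 and 0.539.

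**Figure D3:**
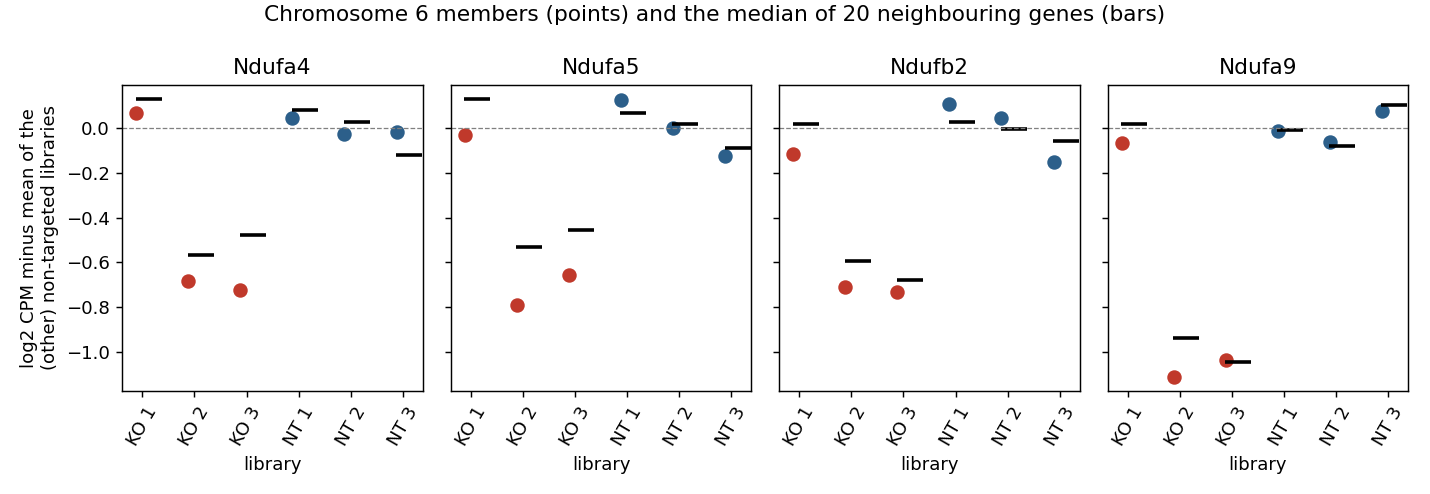
Log2 CPM of the 4 chromosome 6 members (points) and the median of their 20 neighbouring genes (bars) in each library, set against the non-targeted mean (for a non-targeted library, against the mean of the others of its group). KO, knockout; NT, non-targeted. Genes and neighbours are low together in KO 2 and KO 3 and stand near 0 in KO 1 and in all NT libraries.

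Complex II, which oxidises succinate and feeds its electrons to ubiquinone, held members of both directions. Sdhb, the iron-sulphur subunit (chromosome 4, 140961203 to 140979193), had 74.1, 63.3 and 68.0 CPM in the knockout clones against 88.3, 82.4 and 85.6 CPM. Sdhd, a membrane anchor (chromosome 9, 50596338 to 50603849), had 153, 154 and 164 CPM against 131, 134 and 132 CPM. Sdha, the flavoprotein subunit, had 306, 319 and 312 CPM against 297, 278 and 277 CPM. The groups were apart in all 3 genes, Sdhb lower and Sdhd and Sdha higher in the knockout clones. Of all tested genes, 14.7% lay lower and 14.8% higher without overlap. Mean levels were 68.5 ± 5.44 and 85.4 ± 2.97 CPM for Sdhb, and 157 ± 6.03 and 133 ± 1.40 CPM for Sdhd (SD, n = 3). The log2 fold changes were -0.32 ± 0.09 for Sdhb, 0.24 ± 0.07 for Sdhd and 0.14 ± 0.06 for Sdha (SE), with adjusted p of 0.122, 0.122 and 0.229 (edgeR). Without knockout replicate 1, edgeR called Sdhb as lower (adjusted p = 0.0130) and Sdhd as higher (0.0298), and over all alternatives both reached 0.371. In the fit without that clone, 14.0% of all genes were called lower and 15.1% higher. Sdhc, the other anchor, had 93.7, 84.0 and 73.3 CPM against 98.9, 81.0 and 91.8 CPM, with overlap.

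**Figure D4:**
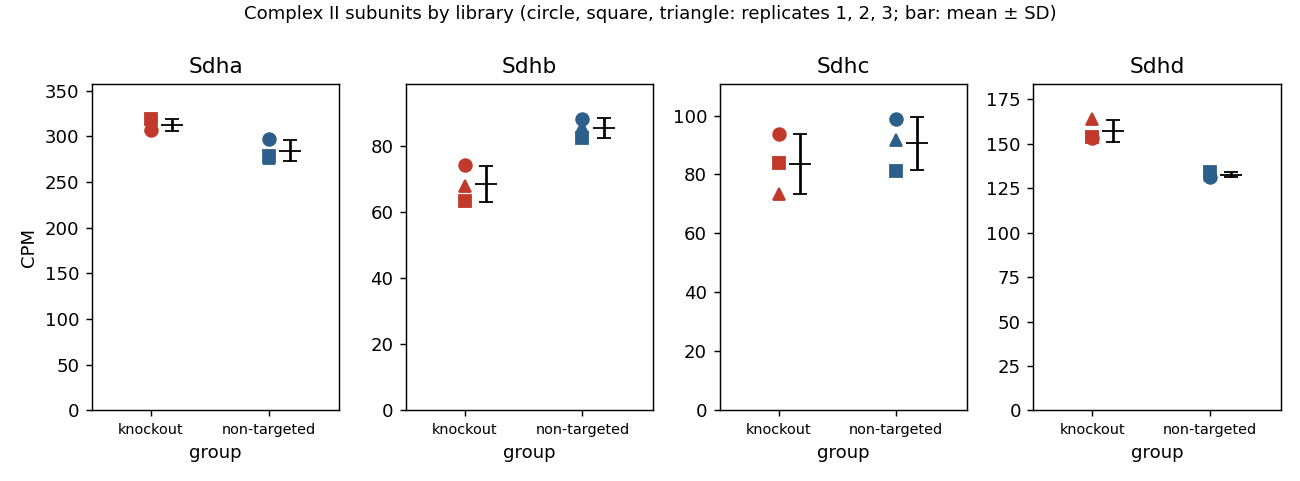
CPM of the 4 complex II subunits in each library (circle, square and triangle for replicates 1, 2 and 3), with the mean ± SD of each group beside the points. Axes start at 0; Sdhb lies lower and Sdhd and Sdha lie higher in the knockout clones without overlap, and Sdhc overlaps.

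All 8 nuclear complex III genes had negative log2 fold changes, with a median of -0.08 that was -0.14 without knockout replicate 1 and -0.13 without non-targeted replicate 2. Of the 8, 2 lay lower without overlap (25%, against 14.7% of all tested genes). Uqcrq, a small membrane subunit, had 96.2, 81.6 and 87.4 CPM in the knockout clones against 106, 96.5 and 112 CPM, and Uqcr10, another small subunit, had 82.4, 67.9 and 77.8 CPM against 91.4, 85.5 and 90.5 CPM. Uqcrc1, a core protein, overlapped, with 313, 261 and 267 CPM against 334, 298 and 339 CPM. Their log2 fold changes were -0.25 ± 0.10, -0.23 ± 0.09 and -0.21 ± 0.09 (SE, n = 3 per group), with adjusted p of 0.174, 0.187 and 0.216 (edgeR). Uqcrh, the hinge subunit, was the closest to 0, at -0.01, and took the other sign without knockout replicate 1 or 2. When knockout replicate 1, 2 or 3 was left out, 6 of the 8 complex III genes were negative.

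The 13 nuclear complex IV genes had a median of -0.18, and 12 were negative. Cox6a1, the widely expressed form of a regulatory subunit, had 133, 112 and 118 CPM in the knockout clones against 145, 139 and 153 CPM, and Cox5b, a zinc-binding subunit, had 71.1, 67.4 and 71.8 CPM against 78.8, 75.9 and 84.0 CPM. Both lay lower without overlap, with log2 fold changes of -0.26 ± 0.09 and -0.18 ± 0.08 and adjusted p of 0.143 and 0.206 (edgeR). Cox6c, at 0.02, was the only nuclear complex IV gene above 0 and turned to -0.01 without knockout replicate 2 or non-targeted replicate 3.

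Among subunits with tissue-restricted forms, Cox6b2, the form known from testis, had 17.5, 9.51 and 7.41 CPM in the knockout clones against 23.0, 16.8 and 21.9 CPM. Knockout replicates 2 and 3 were below every other library and replicate 1 lay within the non-targeted range, and the log2 fold change was -0.84 ± 0.31 (adjusted p = 0.165, edgeR). Without knockout replicate 1 Cox6b2 was called as lower, at -1.29 with an adjusted p of 0.00355, the adjusted p ranging up to 0.391 over the alternatives. Its widely expressed counterpart Cox6b1 had 85.8, 102 and 101 CPM against 95.1, 97.1 and 103 CPM, with overlap and a value of -0.03. Ndufa4l2, the hypoxia-inducible relative of Ndufa4, had 6.59, 1.65 and 1.22 CPM against 4.44, 2.43 and 4.52 CPM, with its highest value in knockout replicate 1. Cox7a1, the form of heart and muscle, had 3.68, 2.32 and 2.59 CPM against 4.12, 2.75 and 3.96 CPM, and Cox7a2, its widely expressed counterpart, 95.9, 99.8 and 97.9 CPM against 105, 110 and 107 CPM. Cox4i2, Cox6a2 and Cox8c, other restricted forms, had 56, 1 and 36 counts over the 6 libraries and were below the minimum.

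Complex V genes had a median of -0.10, with 13 of 15 negative. Atp5g1, which encodes the membrane ring subunit c and had the smallest p of all members, had 47.5, 47.6 and 42.9 CPM in the knockout clones against 59.8, 56.0 and 57.3 CPM. All knockout values lay below all non-targeted values, and the log2 fold change was -0.33 ± 0.09 (SE, n = 3 per group; unadjusted p = 0.00627, adjusted p = 0.120, edgeR). Atp5g3, which encodes the same subunit c peptide, lay higher without overlap, with 313, 305 and 312 CPM against 293, 290 and 274 CPM and a log2 fold change of 0.12 ± 0.06 (adjusted p = 0.273). Atp5h and Atp5f1, subunits d and b of the stalk, had log2 fold changes of -0.29 ± 0.10 and -0.20 ± 0.08, with no overlap and adjusted p of 0.144 and 0.183. The row of Atp5h is uncertain, because 80.1% of its transcript is matched at 98% identity or more by other annotated transcripts. Such matches also cover 43.4% of the Atp5f1 transcript. For Atp5g1 they cover 15.3% of the longest transcript, with 14 matching genes and a longest match of 411 bases.

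The 17 factors, which help build or mature the complexes or share their names, had a median of -0.01. Ndufaf1, an early assembly factor of complex I, had 14.1, 23.7 and 21.1 CPM in the knockout clones against 14.0, 13.8 and 13.1 CPM. Knockout replicates 2 and 3 were well above all other libraries, replicate 1 was just above the highest non-targeted clone, and the log2 fold change was 0.52 ± 0.20 (SE; adjusted p = 0.172, edgeR). Without knockout replicate 1 Ndufaf1 was called as higher (adjusted p = 0.00818), with up to 0.401 over the alternatives. Ndufaf5, another complex I assembly factor, had 19.5, 19.2 and 16.8 CPM against 15.9, 13.5 and 15.2 CPM, apart between groups with a value of 0.32 ± 0.14. The lowest was Cox20, a chaperone of the mt-Co2 protein, at -0.32 ± 0.18, with overlapping groups.

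One knockout clone stood closer to the non-targeted clones than the other 2 in many of these genes. Without knockout replicate 1, edgeR called 22 members as lower and 2 as higher (Sdhd and Ndufaf1), where 14.0% of all genes were called lower and 15.1% higher in that comparison. The 22 were all nuclear subunits, 29.3% of the 75, and 18 of them lay outside the chromosome 6 stretches. Leaving out any other library gave no called member. With knockout replicate 1 left out, chrM genes gave no call and 3 of 10 were negative.

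The balance between the genomes was compared as shares of each library. The 10 chrM members took 2.00%, 1.85% and 1.93% of the counts in knockout replicates 1 to 3 and 1.87%, 1.98% and 1.46% in non-targeted replicates 1 to 3. The 75 nuclear subunits took 0.959%, 0.911% and 0.898% in the knockout and 0.989%, 0.946% and 0.997% in the non-targeted clones. The nuclear shares of knockout replicates 2 and 3 were below all others, and the chrM shares overlapped. On the log2 scale the ratio of the chrM to the nuclear sum was 1.06, 1.02 and 1.10 in the knockout and 0.92, 1.06 and 0.55 in the non-targeted clones, a difference of the means of 0.22 that was 0.07 without non-targeted replicate 3. For the chrM share the difference of 0.156 percentage points was 0.00033 without that library. These are sums over chosen genes and were not tested. The chrM sums hold few counts of mt-Co2, mt-Co3 and mt-Atp6, which a chromosome 1 copy matches over nearly all their length. In bulk libraries less RNA per cell and fewer expressing cells cannot be told apart.

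**Figure D5:**
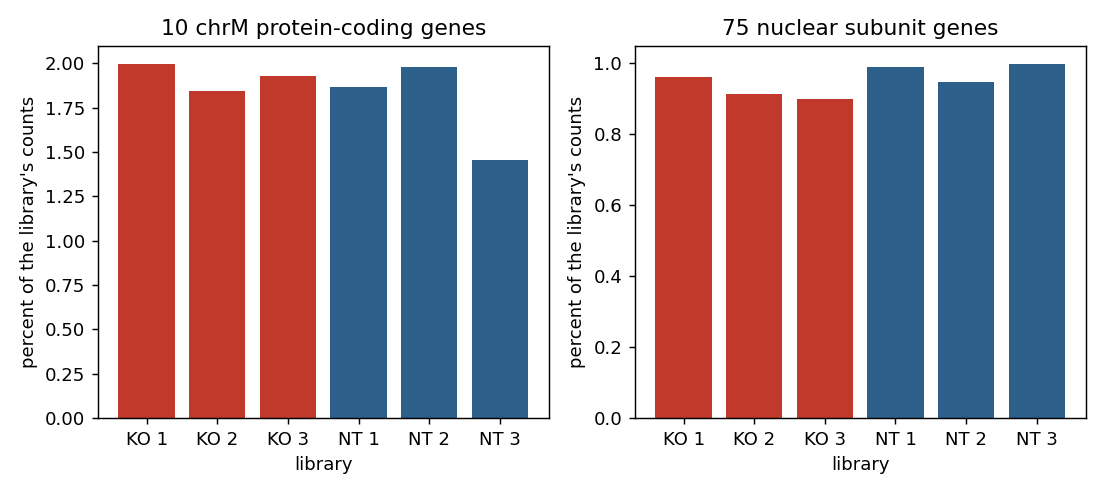
Share of each library's counts (percent, axes from 0) taken by the 10 chrM members (left) and the 75 nuclear subunit genes (right). KO, knockout; NT, non-targeted. The chrM share is lowest in NT 3 (1.46%), and the nuclear share is lowest in KO 3 and KO 2 (0.898% and 0.911%).

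Promoters of nuclear subunits are known for sites of ETS factors such as GABP and of ERR receptors. Short motifs of these factors, and the separate sequence CCAAT, were searched on both strands in the RefSeq promoter windows of GRCm38.p6. The windows run from 250 bases before to 50 bases after each gene's start. Of the 75 subunits 64 had a window. The ETS motif CCGGAAG was present in 16 of the 64 (25%) and in 9.93% of all 27025 genes with windows, the ERR motif TGACCTTG in 4 (6.25%) against 1.76%, and CCAAT in 27 (42.2%) against 41.1%. Subunits with and without the ETS motif had similar median log2 fold changes, -0.10 for 16 and -0.13 for 48. Sdhb and Sdhd were both among the 16 with the motif, and had the lowest and highest log2 fold changes of these, -0.32 and 0.24. The Sdhd match lies before its start. Sdhb, and likewise Sdha, had no match in the part of the window before the gene. The Sdhd match is shown in capitals with its flanks, on the strand of the gene, as a description only.
Sdhd ETS match, chr9:50603878-50603906, minus strand: ccgtctcctgcCTTCCGGttcacgcttca

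Other genes of mitochondrial expression were compared from lists named for their function. No list had a gene called by edgeR. Of 74 mitochondrial ribosome genes, 9 were lower (12.2%) and 0 higher at an unadjusted p under 0.05, where 10.8% of all tested genes were lower and 14.0% higher. Of the same 74, 21 lay lower without overlap (28.4%, against 14.7% of all tested genes), and the median was -0.07. Mrpl24, a protein of the large subunit, had 92.6, 80.3 and 75.4 CPM in the knockout clones against 108, 104 and 110 CPM, and DESeq2 called it as lower. Of 18 genes for transcription and maintenance of mitochondrial DNA, 5 were lower (27.8%) and 1 higher (5.56%) at an unadjusted p under 0.05. Tefm, the elongation factor of mitochondrial transcription, had 16.2, 17.5 and 14.5 CPM against 24.4, 22.5 and 22.1 CPM, and Polg, the mitochondrial DNA polymerase, 92.5, 103 and 90.7 CPM against 78.1, 74.6 and 72.7 CPM. Neither overlapped between groups, with log2 fold changes of -0.52 ± 0.13 and 0.34 ± 0.08 (adjusted p = 0.113 and 0.111, edgeR). DESeq2 called 2 of the 18 as lower, Tefm among them, and 1, Polg, as higher. Of all genes it adjusted, it called 3.15% lower and 5.50% higher.

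Among 18 tested genes of mitochondrial RNA processing, 3 were lower (16.7%) and 1 higher (5.56%) at an unadjusted p under 0.05, against 10.8% and 14.0% of all tested genes. Elac2, which cuts the 3′ ends of transfer RNAs out of the precursors, had 130, 134 and 131 CPM against 156, 154 and 178 CPM, apart between groups. Among 16 tested genes of the mitochondrial stress response 1 was lower (6.25%) and 3 were higher (18.8%). DESeq2 called 2 of this list, both as higher, where it called 5.50% of all genes higher. Atf5, a transcription factor of that response, had 36.6 ± 4.67 CPM against 19.6 ± 1.49 CPM (SD, n = 3), without overlap. The other was Phgdh of serine synthesis, with 80.5, 102 and 103 CPM against 63.8, 76.0 and 68.0 CPM. Of 17 genes of the TCA cycle and pyruvate dehydrogenase 4 were lower (23.5%) and 1 higher (5.88%), of 32 tested further assembly factors 4 (12.5%) and 2 (6.25%), and of 12 tested nuclear regulators 0 and 2 (16.7%). Of 9 tested subunits and carriers that the prefixes do not take, 1 was lower (11.1%) and 0 higher. The chrM ribosomal RNAs mt-Rnr1 and mt-Rnr2 had log2 fold changes of 0.47 and 0.49, with overlapping groups and their lowest values in non-targeted replicate 3.

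Markers of other cells differed between libraries. Fibroblast markers, examined because of the feeders, were higher at an unadjusted p under 0.05 in 15 of 19 tested genes (78.9%, against 14.0% of all tested genes). On the log2 scale their median stood 0.66, 0.82 and 1.97 above the non-targeted mean in knockout replicates 1 to 3, and at -0.53, 0.39 and 0.20 in non-targeted replicates 1 to 3 against the others of that group. All 21 listed had counts in every library, and their sum was 2089, 1612 and 2059 CPM in the knockout clones against 2004, 1660 and 1992 CPM, with overlap and the lowest sum in knockout replicate 2. The 12 pluripotent cell markers summed to 5753, 4452 and 3784 CPM against 6129, 5523 and 6034 CPM. Of these 12, 11 had a negative log2 fold change, where 49.7% of all tested genes did, and the median was -0.39. At an unadjusted p under 0.05, 2 were lower and 0 higher (edgeR). Without knockout replicate 1 edgeR called 9 of them as lower, where 14.0% of all genes tested without that clone were called lower. Of 8 markers of differentiating cells Sox17 was at 0 in at least 1 library, and their sum was 19.3, 84.4 and 53.1 CPM against 14.6, 19.4 and 11.7 CPM. Both sums of knockout replicate 1 were inside the range of the non-targeted clones. Knockout replicates 2 and 3, with the lowest pluripotent sums and the highest differentiating sums, were also those with the lowest medians of nuclear subunits. The part of these cells in the values of the members was not tested.

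Several subunit rows, and those of the factors Cox16 and Cox17, could not be read. Ndufa13, Cox4i1, Cox16 and Cox17 had 0 counts, and 99.2% to 100% of their length lies under other genes annotated on the same strand, among them Yjefn3 for Ndufa13 and Gm20388 for Cox4i1. Reads that overlap several genes were not counted, so these zeros say nothing on expression, although Cox4i1 encodes the widely expressed form of a complex IV subunit. Cox8b had 0 counts with no such overlap. The members Ndufb8 and Ndufb2 keep rows although 62.0% and 37.2% of their length lies under another gene. The rows of Ndufs3, Uqcrb and Atp5l are matched at 98% identity or more over 75.7%, 62.8% and 57.4% of their transcripts. Of the 92 nuclear members, 71 had no such match.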

How the data were processed

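The authors deposited whole-number read counts per gene, with no normalization, in a single table of 6 libraries. Of aligners and counters, the submitters' processing notes list featureCounts 1.5.3 and HISAT2 2.1.0, beside DESeq2 1.18.1 and the mm10 build. Per the file headers, featureCounts 1.6.2 counted whole gene bodies of GENCODE M15 (GRCm38) on the reverse strand, with no option for multi-mapping or multi-gene reads. From the counts, genes passing filterByExpr (minimum count 10, minimum total 15) were scaled by TMM and tested with edgeR 4.0.16 (quasi-likelihood, group only, Benjamini-Hochberg over all 14664 genes, 0.05) in R 4.3.3. The common biological coefficient of variation was 0.188. DESeq2 1.42.0 and limma 3.58.1 voom, other scalings, no filter, each library left out and a replicate block were alternatives. The edgeR fit was tested on simulated data.

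Shifted stretches were runs of at least 20 genes whose running median over 21 genes passed 0.35 on the log2 scale. Copies were found with BLAST+ 2.17.0 among GENCODE M21 transcripts and aligned with Biopython 1.88, and promoters came from RefSeq. Named members were all chrM genes, the 3 smallest p and both extremes of each class, tissue-restricted forms with their counterparts, and members in stretches. A member that this rule names is not reported here. Ndufb8, Ndufs3, Uqcrb, Atp5l, Sdhc, Atp5a1 and Atp5b were named after their values were seen. Ndufa4l2 was counted with complex IV. The members, classes and lists were chosen with earlier results of these data known.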

Additional observations from a re-analysis of the deposited data

How the results depend on the processing

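The number of genes called in the whole table was 0 with edgeR and 159 without a filter, 3 with the replicate block, 1232 with DESeq2, 1 with limma voom and 0 to 4404 when a library was left out, the 4404 without knockout replicate 1. Called members ranged from 0 to 2 higher and 0 to 22 lower when a library was left out, and DESeq2 called 1 as lower. The replicate numbers did not pair the samples (correlations of same-numbered deviations 0.46, 0.11 and -0.02), and the block called 0 members. With the mean of the log2 CPM in place of the sum, the difference in the chrM to nuclear ratio was 0.42 in place of 0.22. That mean weights every gene equally, the near-empty rows mt-Co2, mt-Co3 and mt-Atp6 among them (log2 fold changes of 0.51, 0.56 and 0.39). The median of the 6 chrM members above 1000 CPM was 0.08. Medians of the nuclear subunits and of each nuclear complex stayed within the spread between clones under all alternatives run.

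Of 41 named members 33 kept their sign throughout. When each library was left out in turn, the log2 fold change ranged from -0.069 to 0.041 for Cox6b1, -0.013 to 0.059 for Cox6c, -1.40 to 0.13 for Ndufa4l2, -0.029 to 0.0033 for Uqcrh, -0.047 to 0.17 for mt-Co1, -0.026 to 0.15 for mt-Cytb, -0.10 to 0.14 for mt-Nd1 and -0.065 to 0.086 for mt-Nd4. The sign changed without knockout replicate 1 (Cox6b1, Uqcrh, mt-Co1, mt-Nd1 and mt-Nd4), without knockout replicate 2 (Cox6c, Ndufa4l2 and Uqcrh), without knockout replicate 3 (Ndufa4l2) or without non-targeted replicate 3 (Cox6c and the 4 chrM genes). The causes were not tested.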
